A study of Rattus norvegicus with 6 samples.

Results

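The transcripts described here are those of 34 genes of B cells and plasma cells, taken by symbol from the deposited table: the B cell receptor complex, its co-receptors and signalling proteins, B cell transcription factors, survival and homing receptors, and plasma cell genes. All 34 were found among the 22835 genes of the table and all 34 passed the filter on low counts, beside 16548 genes tested in all. They were divided by role into 28 B cell genes and 6 plasma cell genes. RNA was sequenced from whole lung of female rats on an SD background at 12 weeks of age, 3 animals per genotype. Animals called ND1_cKO here carried both an Sftpc-Cre driver and the LSL-DdCBE-ND1 allele, so that the promoter of surfactant protein C, a product of alveolar type 2 cells, drove the Cre that activates a DdCBE (a base editor of mitochondrial DNA) aimed at ND1. Controls were littermates with the LSL allele (ND1LSL) per the series description, while their genotype label reads WT. The Cre, the active editor and the ND1 edit differ between the genotypes together and cannot be told apart.

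B cells recognise antigen through a membrane immunoglobulin paired with the signalling chains encoded by Cd79a and Cd79b, and kinases and adaptors such as Blk, Btk and Blnk carry the signal inward. After activation some B cells become plasma cells, which switch off Pax5, switch on Prdm1 and secrete antibody. In the lung they are found as scattered cells and in lymphoid aggregates along the airways, and the J chain lets secreted IgA be carried across the airway epithelium.

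The total count per library lay between 28669995 and 38303274, and the biological coefficient of variation was 0.22. The first principal component (46.6% of the variance) separated the genotypes, with ND1_cKO replicate 3 farthest from the controls at 65.2, against 13.7 and 25.3 for the other ND1_cKO libraries. ND1, the targeted gene, lay between 2432 and 3083 CPM in controls and between 3427 and 3737 CPM in ND1_cKO. Its log2 fold change was 0.40 ± 0.12 (SE, edgeR adjusted p = 0.125, DESeq2 adjusted p = 0.0144). Counts show its transcript and not the edit. A CPM value is the normalised count relative to library size, scaled with TMM factors, so it is a share of a library's counts and is not corrected for gene length.

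Most B and plasma cell genes had lower values in ND1_cKO, and none of them passed edgeR's test. Of 34 members 29 had a negative log2 fold change (ND1_cKO over control), where 48.1% of all genes tested did, and the median was -0.44 against 0.01 over all genes. At an adjusted p below 0.05 edgeR's quasi-likelihood test called 0 members, against 2.42% of all genes in either direction, 1.14% higher and 1.28% lower. The smallest adjusted p was 0.0696, for Bank1. At an unadjusted p below 0.05 there were 12 members lower and 0 higher, against 10.2% and 11.1% of all genes. DESeq2 called 8 members, all lower, which is 23.5% of the members against 5.29% of all genes it tested (5.73% were called higher): Cd79a, Cd79b, Ms4a1, Cd22, Blk, Bank1, Pax5 and Jchain. In 11 members (32.4%) every ND1_cKO library lay below every control library, which held for 14.1% of all genes tested, and in 0 members did every ND1_cKO library lie above. The members were assembled with earlier results of these data known and are co-expressed in the same cells, so these shares are descriptions and not tests. In whole lung, fewer cells of a type and less RNA per cell cannot be told apart.

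**Figure D1:**
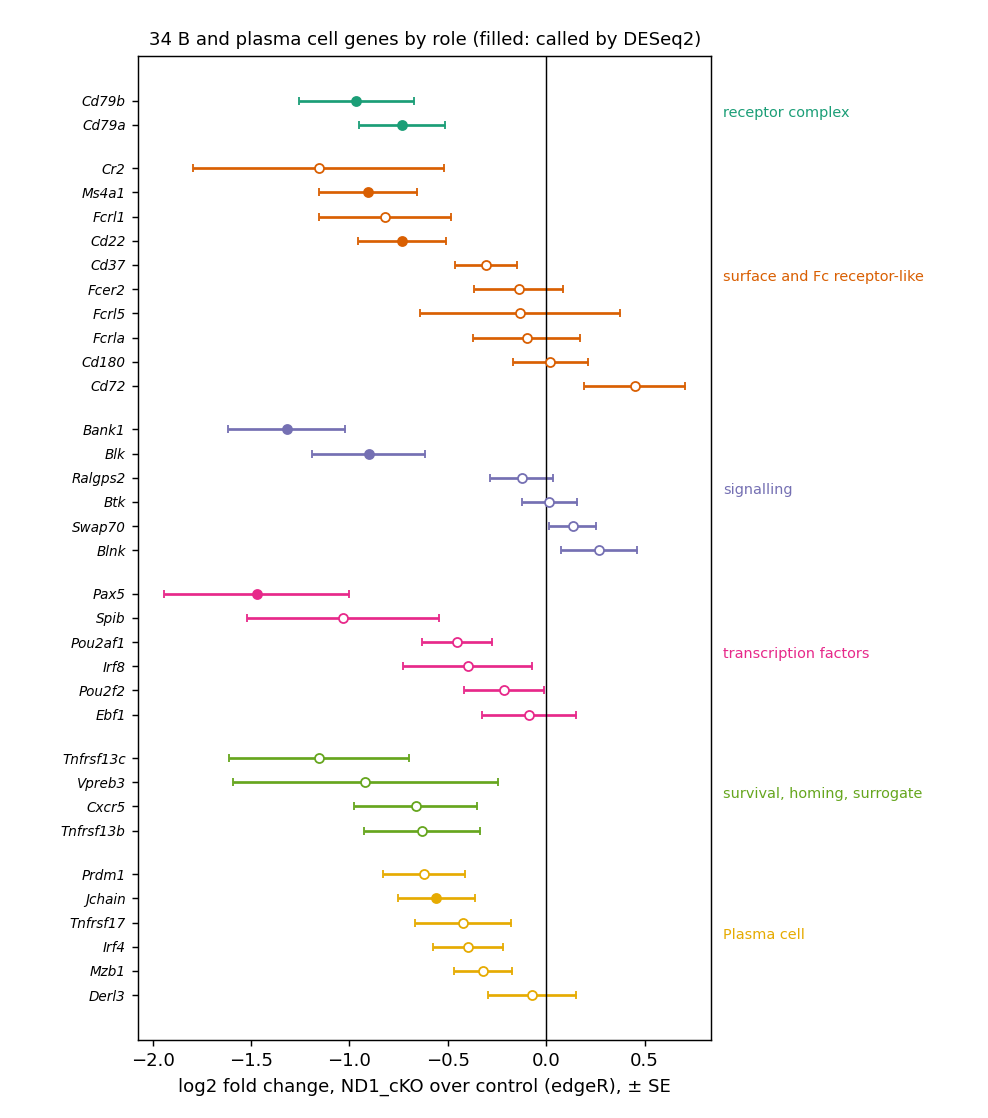
Log2 fold change of each of the 34 genes (ND1_cKO over control, edgeR, n = 3 libraries per genotype) on the horizontal axis, with bars of 1 SE, grouped by role; filled points were called by DESeq2. Pax5 lies farthest left at -1.47 and Cd72 farthest right at 0.45, and the 6 plasma cell genes lie between -0.62 and -0.07.

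Promoters are shown for the members that DESeq2 called and for which RefSeq's promoter table (build GRCr8) has an entry, 4 of the 8; over all 34 members 25 had an entry. Each runs from 250 bases before to 50 bases after the annotated start, 5′ to 3′ on the gene's strand. They are Cd79a on the plus strand (chr1:89621210-89621509), Cd22 on the minus strand (chr1:95259681-95259980), Bank1 on the minus strand (chr2:227473666-227473965) and Jchain on the plus strand (chr14:19822726-19823025). Capitals mark GAGGAA, a core bound by ETS factors of the kind that Spib encodes, on either strand.
Cd79a: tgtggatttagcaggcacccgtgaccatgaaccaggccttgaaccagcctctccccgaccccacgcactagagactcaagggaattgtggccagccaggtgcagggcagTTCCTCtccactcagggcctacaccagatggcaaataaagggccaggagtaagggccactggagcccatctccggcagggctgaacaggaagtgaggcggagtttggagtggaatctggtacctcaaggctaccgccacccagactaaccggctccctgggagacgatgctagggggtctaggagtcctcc
Cd22: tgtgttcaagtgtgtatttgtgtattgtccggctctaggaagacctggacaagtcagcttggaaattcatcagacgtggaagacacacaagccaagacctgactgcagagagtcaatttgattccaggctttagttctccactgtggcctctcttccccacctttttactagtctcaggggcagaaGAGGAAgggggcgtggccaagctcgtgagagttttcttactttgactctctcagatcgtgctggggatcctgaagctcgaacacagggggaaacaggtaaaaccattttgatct
Bank1: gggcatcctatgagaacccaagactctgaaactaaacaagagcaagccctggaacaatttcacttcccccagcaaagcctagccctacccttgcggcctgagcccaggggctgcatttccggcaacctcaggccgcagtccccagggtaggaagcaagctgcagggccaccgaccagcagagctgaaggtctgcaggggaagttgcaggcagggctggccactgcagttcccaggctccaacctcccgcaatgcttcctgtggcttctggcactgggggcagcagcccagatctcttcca
Jchain: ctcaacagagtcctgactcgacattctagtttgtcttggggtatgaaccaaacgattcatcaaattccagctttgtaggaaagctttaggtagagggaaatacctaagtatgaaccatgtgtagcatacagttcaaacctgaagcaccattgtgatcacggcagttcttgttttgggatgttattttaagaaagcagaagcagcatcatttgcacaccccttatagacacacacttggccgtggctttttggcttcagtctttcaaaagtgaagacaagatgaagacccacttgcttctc
The Cd79a match is on the opposite strand and begins 141 bases before the start, and the Cd22 match is on the gene's own strand and begins 64 bases before it. GAGGAA occurred in 11 of the 25 member promoters and in 27.6% of all 33468 promoters of the same length. The octamer ATGCAAAT, bound by the factor that Pou2f2 encodes together with the coactivator of Pou2af1, occurred in 2 of the 25, those of Vpreb3 and Blnk, and in 1.78% of all. Both strands were searched, no match of one motif overlapped another in the promoters shown, and these letters in a window are not evidence of binding.

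The signalling chains of the B cell receptor were both lower in every ND1_cKO library than in every control library. Cd79a, the immunoglobulin alpha chain, had 53.9, 59.1 and 45.5 CPM in controls (replicates 1, 2 and 3, in that order throughout) against 39.6, 33.95 and 21.8 CPM in ND1_cKO. Its log2 fold change was -0.73 ± 0.22 (SE, n = 3 per genotype; edgeR adjusted p = 0.125, DESeq2 adjusted p = 0.0178). Cd79b, the beta chain, had 21.7, 29.3 and 20.2 CPM in controls and 16.4, 12.6 and 7.47 CPM in ND1_cKO. Both genes were highest in control replicate 2 and lowest in ND1_cKO replicate 3, and the gap between the genotypes was small beside the range within them. For Cd79b the log2 fold change was -0.96 ± 0.29 (edgeR adjusted p = 0.128, DESeq2 adjusted p = 0.0126), and with any 1 library left out it stayed between -1.25 and -0.72 without passing edgeR's test.

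Among the 10 genes of surface co-receptors and Fc receptor-like proteins, 8 had negative log2 fold changes, with a median of -0.22, and edgeR called 0. Ms4a1, which encodes CD20, had 13.8, 16.7 and 11.05 CPM in controls and 9.19, 7.82 and 5.11 CPM in ND1_cKO. That is 1.88-fold lower (log2 -0.91 ± 0.25, edgeR adjusted p = 0.0995, DESeq2 adjusted p = 0.00978), with no overlap between the genotypes. Cd22, an inhibitory co-receptor that binds sialic acid, had 14.7 ± 1.78 CPM in controls and 8.84 ± 2.503 CPM in ND1_cKO (mean ± SD, n = 3; log2 -0.73 ± 0.22, edgeR adjusted p = 0.125, DESeq2 adjusted p = 0.0273), again without overlap. Fcrl1, an Fc receptor-like protein of B cells, was also without overlap at 1.34 to 1.54 CPM in controls and 0.598 to 1.06 CPM in ND1_cKO (-0.82 ± 0.34, edgeR adjusted p = 0.22), on as few as 22 counts in a library.

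Cr2, the complement receptor of mature B cells that follicular dendritic cells also carry, varied most between the ND1_cKO animals. It had 12.4, 10.4 and 8.64 CPM in controls and 9.73, 2.91 and 1.49 CPM in ND1_cKO. ND1_cKO replicate 1 lay within the control range and the other 2 far below it. The log2 fold change of -1.16 ± 0.64 (edgeR adjusted p = 0.352) was -2.26 without ND1_cKO replicate 1 (adjusted p = 0.0625) and -0.74 without ND1_cKO replicate 3 (adjusted p = 0.484). With any other library left out it was between -1.28 and -0.91. Other genes of the surface and Fc receptor-like group barely differed in mean. They were Fcer2, the low-affinity IgE receptor (-0.14 ± 0.23), Fcrla (-0.10 ± 0.27), Fcrl5 (-0.13 ± 0.51) and Cd180, a Toll-like receptor relative (0.02 ± 0.19). Each of these 4 reversed its sign in at least 1 alternative. Cd37, a tetraspanin of many leukocytes, was at -0.31 ± 0.16 (edgeR adjusted p = 0.311). Cd72, an inhibitory lectin, was the member with the highest log2 fold change (0.45 ± 0.26, edgeR adjusted p = 0.36), with 6.19, 6.40 and 5.68 CPM in controls and 10.7, 5.35 and 8.92 CPM in ND1_cKO. In it ND1_cKO replicate 2 lay below all controls and the other 2 above them.

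**Figure D2:**
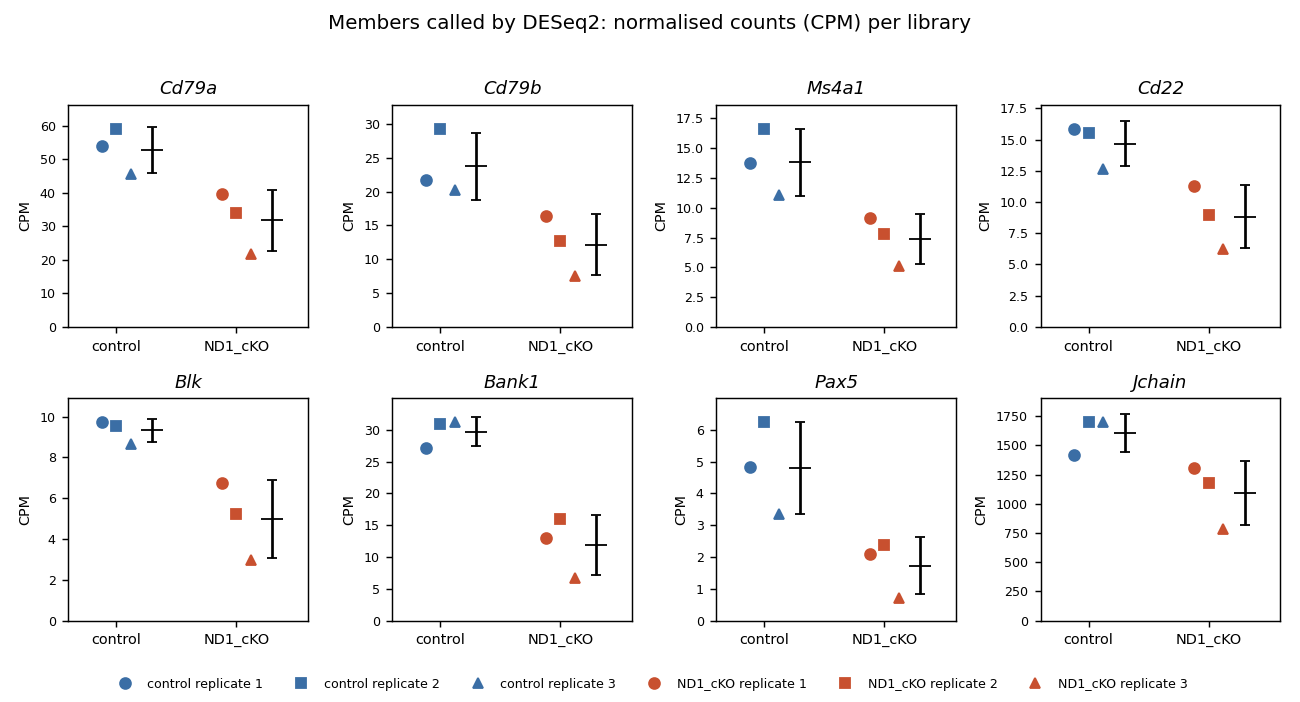
CPM in each library for the 8 genes that DESeq2 called; each vertical axis starts at 0, symbols give the replicate number, and black bars are the mean ± SD of 3 libraries. In all 8 panels the ND1_cKO libraries lie below the controls, and ND1_cKO replicate 3 is the lowest library.

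The 6 signalling genes divided, with 3 negative, 3 positive and a median of -0.05. Bank1, a scaffold protein of B cell receptor signalling, came closest to edgeR's threshold. It had 27.1, 30.9 and 31.2 CPM in controls and 13.0, 16.0 and 6.68 CPM in ND1_cKO. The lowest control was well above the highest ND1_cKO library, a mean difference of 2.49-fold (log2 -1.32 ± 0.30, edgeR adjusted p = 0.0696, DESeq2 adjusted p = 0.000241). Without ND1_cKO replicate 3 it passed edgeR's test (-1.04, adjusted p = 0.0195). Blk, a Src-family kinase, had 9.73, 9.56 and 8.67 CPM in controls and 6.76, 5.21 and 2.97 CPM in ND1_cKO (-0.90 ± 0.29, edgeR adjusted p = 0.136, DESeq2 adjusted p = 0.0274). These 2 separated the genotypes; the other signalling genes did not. Btk, the Tec-family kinase that B cells share with myeloid cells, was at 23.1 ± 3.62 CPM in controls and 23.4 ± 2.42 CPM in ND1_cKO (0.02 ± 0.14, edgeR adjusted p = 0.962). The adaptor Blnk (0.27 ± 0.19), the actin-linked signalling protein Swap70 (0.14 ± 0.12) and the Ral exchange factor Ralgps2 (-0.12 ± 0.16) overlapped between the genotypes, with edgeR adjusted p of 0.467, 0.553 and 0.698.

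All 6 B cell transcription factors had negative log2 fold changes, with a median of -0.43, and edgeR called 0. Pax5, the factor that commits cells to the B lineage, had 4.82, 6.24 and 3.34 CPM in controls and 2.10, 2.39 and 0.702 CPM in ND1_cKO, the lowest from 25 counts. It was the member with the largest difference (2.77-fold lower, log2 -1.47 ± 0.47, edgeR adjusted p = 0.139, DESeq2 adjusted p = 0.0173), and its genotypes did not overlap. Pou2af1, a coactivator of octamer-binding factors, had 36.6 ± 5.64 CPM in controls and 26.7 ± 5.82 CPM in ND1_cKO (-0.45 ± 0.18, edgeR adjusted p = 0.208), and its closest libraries stood at 33.1 and 32.9 CPM. Pou2f2, an octamer-binding factor (-0.21 ± 0.20), and Ebf1, which specifies early B cells and is also made by stromal cells (-0.09 ± 0.24), overlapped. Ebf1 was highest of all in ND1_cKO replicate 3 at 13.0 CPM. In that library the stromal gene Col1a1 was also highest, at 2357 CPM against 186 to 257 CPM in controls. Col1a1 had the highest log2 fold change of the 10 stromal and mural cell markers. Of those markers 5 were negative and the median was -0.07. The part of stromal cells in the Ebf1 value was not tested.

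Spib and Irf8 act both in B cells and in plasmacytoid dendritic cells. Spib had 23.0, 22.9 and 15.0 CPM in controls and 16.0, 9.995 and 3.76 CPM in ND1_cKO (-1.03 ± 0.49, edgeR adjusted p = 0.283). Irf8 had 183, 164 and 92.3 CPM in controls and 129, 133 and 70.8 CPM in ND1_cKO (-0.40 ± 0.33, edgeR adjusted p = 0.527). Both were lowest in the replicate numbered 3 of each genotype, and the genotypes overlapped. Of 10 markers listed for plasmacytoid dendritic cells 8 were in the table and tested, 5 of them negative with a median of -0.23. Their mean log2 level, relative to the control mean, was -0.715 in control replicate 3 and -0.693 in ND1_cKO replicate 3, and between 0.242 and 0.432 in the other 4 libraries. Their summed level ran from 131 to 159.6 CPM in controls and from 119 to 122 CPM in ND1_cKO. Siglech, their defining marker, had 9.04, 14.4 and 0.482 CPM in controls and 11.4, 12.3 and 1.04 CPM in ND1_cKO. The part of these cells in the Spib and Irf8 values was not tested. At the lowest p-values of this list were Plac8, Cox6a2 and Runx2, with values in both directions. Plac8, which many other leukocytes express, fell (-0.76 ± 0.12, edgeR adjusted p = 0.0357), and Runx2 was at -0.23 ± 0.12. Cox6a2 had 2.67, 1.21 and 0.310 CPM in controls and 7.61, 5.70 and 2.69 CPM in ND1_cKO, above every control (1.91 ± 0.72, edgeR adjusted p = 0.194, DESeq2 adjusted p = 0.0287). Plac8 was not called with any 1 control library or ND1_cKO replicate 1 left out (adjusted p between 0.0667 and 0.145). Over all genes those fits called 0 to 110 higher and 0 to 74 lower, against 188 and 212 with every library kept.

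The 4 genes of survival, homing and the surrogate light chain were all negative, with a median of -0.79, and edgeR called 0. Tnfrsf13c, the BAFF receptor that mature B cells depend on, had 4.35, 3.91 and 2.58 CPM in controls and 2.62, 1.49 and 0.758 CPM in ND1_cKO (-1.16 ± 0.46, edgeR adjusted p = 0.208). Only ND1_cKO replicate 1 reached into the control range, by a narrow margin. Tnfrsf13b, which encodes the related receptor TACI, was at -0.63 ± 0.29 and Cxcr5, the receptor for Cxcl13 that brings B cells into follicles, at -0.66 ± 0.31, with edgeR adjusted p of 0.273 and 0.276. Vpreb3 rested on 2 to 25 counts per library and its value (-0.92 ± 0.67, edgeR adjusted p = 0.476) is too imprecise to place.

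The 6 plasma cell genes were all negative too, with a median of -0.41 against -0.54 for the 28 B cell genes, and edgeR called 0 of either. Jchain, which links the units of polymeric IgA and IgM, had 1422, 1699.7 and 1699 CPM in controls and 1310.4, 1178 and 786 CPM in ND1_cKO. The genotypes did not overlap and ND1_cKO replicate 3 was lowest (-0.56 ± 0.20, edgeR adjusted p = 0.166, DESeq2 adjusted p = 0.0467). Prdm1, the factor that drives plasma cell differentiation and that T cells also use, had 27.8, 37.7 and 24.0 CPM in controls and 19.7, 23.1 and 15.4 CPM in ND1_cKO (-0.62 ± 0.21, edgeR adjusted p = 0.154). These 2 were the plasma cell genes without overlap. Irf4 (-0.40 ± 0.18), Mzb1, a chaperone of immunoglobulin assembly (-0.32 ± 0.15), and Tnfrsf17, which encodes BCMA (-0.42 ± 0.24), had edgeR adjusted p of 0.257, 0.268 and 0.364. Derl3, which removes misfolded proteins from the endoplasmic reticulum, was at -0.07 ± 0.23, with ND1_cKO replicate 1 the highest library at 14.3 CPM. The difference between B and plasma cell medians was not tested, since genes of a cell type are not replicates.

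Across libraries most members were lowest in the same ND1_cKO animal. Of the 34, 22 were lowest in ND1_cKO replicate 3, 7 in ND1_cKO replicate 2, 5 in control replicate 3 and 0 in any other library. The same count was not made over all genes. ND1_cKO replicate 3 was also the library farthest from the controls on the first principal component, so the 22 do not set the members apart. Relative to the control mean, the mean log2 level of the 28 B cell genes was 0.0983, 0.174 and -0.272 in control replicates 1 to 3 and -0.164, -0.601 and -0.924 in ND1_cKO replicates 1 to 3. The B cell genes of ND1_cKO replicate 1 thus lay above those of control replicate 3, and the other 2 ND1_cKO libraries below all controls. For the plasma cell genes the same measure was 0.0181, 0.136 and -0.154 in controls and -0.152, -0.385 and -0.684 in ND1_cKO, the same order of libraries with ND1_cKO replicate 1 and control replicate 3 side by side. Without ND1_cKO replicate 3 the medians were -0.40 for B cell genes and -0.30 for plasma cell genes, and without ND1_cKO replicate 1 they were -0.79 and -0.57.

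Counts of each member per 100 Cd79a counts of the same library show which genes kept step with the receptor chain, whatever the library's depth. Ms4a1 had 24.3 to 28.2 in controls and 23.0 to 23.4 in ND1_cKO. Cd22 had 26.2 to 29.5 and 26.5 to 28.7, and Cxcr5 7.18 to 9.68 and 9.12 to 9.42. In these genes the ratio moved little between genotypes, while the level of Cd79a itself differed 2.71-fold between its highest and lowest library. Within controls the Cxcr5 ratio varied more than within ND1_cKO. For Ms4a1 the ratio was nonetheless below every control in every ND1_cKO library, by a narrow margin. Cd79b, the other receptor chain, had 40.2 to 49.6 in controls (mean 44.7) and 34.2 to 41.3 in ND1_cKO (mean 37.6), overlapping but lower in mean. Jchain had 2638 to 3731 per 100 Cd79a counts in controls and 3306 to 3599 in ND1_cKO, within the control range. Bank1 was below the controls even so, with 50.2 to 68.5 in controls and 30.6 to 47.2 in ND1_cKO, as was Pax5 with 7.33 to 10.5 and 3.21 to 7.04. Their closest libraries also stood apart by a narrow margin, at 50.2 and 47.2 for Bank1 and at 7.33 and 7.04 for Pax5. Of the 33 members other than Cd79a, the ratio overlapped between genotypes in 17, was lower in every ND1_cKO library in 3 (Ms4a1, Bank1 and Pax5) and higher in every one in 13. Because Cd79a was itself lower in every ND1_cKO library, the ratio was higher in every ND1_cKO library for 62.1% of all other genes tested and lower in every one for 0.683%, so the 13 (39.4% of the 33) are not a result about the members. They included Cd72, Cd37, Cd180, Fcer2 and Fcrla of the surface and Fc receptor-like group. Others were the signalling genes Btk (38.1 to 50.1 in controls and 65.3 to 96.3 in ND1_cKO), Blnk, Ralgps2 and Swap70. The rest were the transcription factor genes Pou2af1 (62.2 to 72.8 and 76.0 to 97.8) and Pou2f2, and the plasma cell genes Mzb1 (76.6 to 84.0 and 94.8 to 138) and Irf4. A change of Cd79a enters every ratio, so the ratios show unequal change only and carry no test.

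**Figure D3:**
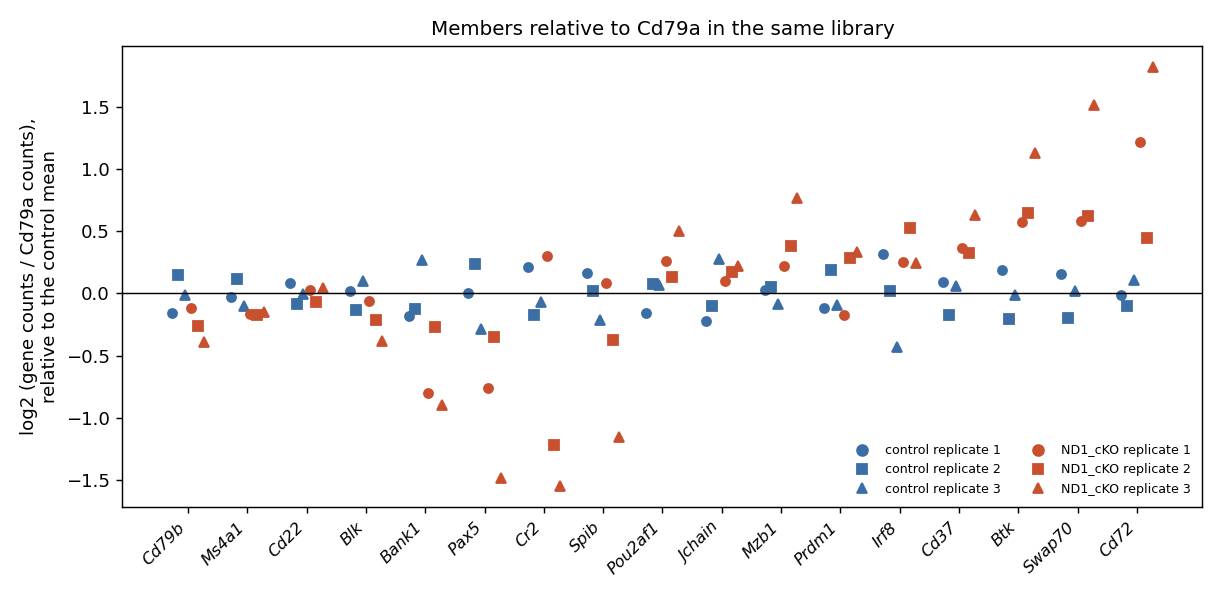
Counts of 17 members divided by the Cd79a counts of the same library, as log2 relative to the mean of the 3 controls; symbols give the replicate number and colours the genotype. Cd22 and Ms4a1 cluster near 0 in all 6 libraries. Bank1 and Pax5 lie below the controls in ND1_cKO, by a narrow margin between the closest libraries. Btk, Swap70 and Cd72 lie above the controls.

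Other genes of B cells and their receptor pathway gave a similar picture of mostly lower values. Of 45 listed and tested, 34 were negative (median -0.24), and edgeR called 2 lower and 0 higher. Bach2, a repressor that holds back plasma cell differentiation and also acts in T cells, fell from 23.7 ± 3.49 to 13.2 ± 1.54 CPM (-0.84 ± 0.14, edgeR adjusted p = 0.0391). Ets1, a factor of lymphocytes and of endothelium, fell from 494 ± 26.6 to 354 ± 21.2 CPM (-0.48 ± 0.09, adjusted p = 0.0449). Neither passed edgeR's test with any 1 library left out, with adjusted p between 0.0506 and 0.145 for Bach2 and between 0.0557 and 0.164 for Ets1. Over all genes those fits called 0 to 250 higher and 0 to 245 lower, against 188 and 212 with every library kept. Malt1, a protease of antigen receptor signalling to NF-kB, stood above every control in every ND1_cKO library (0.84 ± 0.18, edgeR adjusted p = 0.0601). Of 17 symbols listed for immunoglobulins and the receptor that carries them, 2 were matched, the light chain gene Iglc1 and the receptor gene Pigr, and the others are not analysed here. Iglc1, a light chain constant gene, had 10.5, 4.67 and 10.7 CPM in controls and 6.49, 2.66 and 3.56 CPM in ND1_cKO (-1.02 ± 0.43, edgeR adjusted p = 0.232), and its reads may be shared with other light chain genes. Pigr, the epithelial receptor that carries J chain-bound IgA, was higher in every ND1_cKO library (0.58 ± 0.19, edgeR adjusted p = 0.14), the opposite side to Jchain. Malt1 passed without ND1_cKO replicate 2 (adjusted p = 0.0257) and Pigr without ND1_cKO replicate 3 (adjusted p = 0.0286).

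A list of plasma cell secretory and surface genes, shared with other cells, was evenly divided. Of 18 tested 9 were negative, the median was 0.01 and edgeR called 0. At the lowest p-values were Cd28 (-0.56 ± 0.14), Sdf2l1 (0.34 ± 0.12) and Slamf7 (-0.57 ± 0.25). Cd28 and Slamf7 encode surface receptors, and Cd28 is also in the T cell marker list. Of 12 germinal centre genes 11 were tested, 8 were negative (median -0.30) and edgeR called 0. Among them Fas, a death receptor, was at -0.45 ± 0.14 (edgeR adjusted p = 0.135). Of the B cell precursor genes Rag1 had at most 0.0815 CPM in any library. Lef1, which T cells also make, fell (-0.73 ± 0.13, edgeR adjusted p = 0.0418, which ranged from 0.0592 to 0.161 when 1 library was dropped) and Il7r was at -0.09 ± 0.18. With 1 library dropped edgeR called 0 to 250 of all genes higher and 0 to 245 lower. Of factors that attract B cells or keep them alive, 14 of 18 were tested and edgeR called 0 (median -0.25). Cxcl13, the ligand of Cxcr5, had 21.5, 15.3 and 18.1 CPM in controls and 30.1, 26.1 and 39.6 CPM in ND1_cKO (0.80 ± 0.19, edgeR adjusted p = 0.0727, DESeq2 adjusted p = 0.00271). It was thus higher in every ND1_cKO library, while its receptor gene was at -0.66. Ltb (-0.62 ± 0.15, edgeR adjusted p = 0.0727) and Cd40lg, the T cell signal for B cell help (-0.81 ± 0.24, edgeR adjusted p = 0.113), lay below every control. The BAFF gene Tnfsf13b (-0.24 ± 0.24) and the APRIL gene Tnfsf13 (0.07 ± 0.20) overlapped.

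Markers of other lymphocytes had lower values in the same libraries. T cell markers were negative in 12 of 14 (median -0.63, edgeR called 0, DESeq2 6 lower), with Cd2 (-0.68 ± 0.13, edgeR adjusted p = 0.0505), Cd3g (-0.66 ± 0.15) and Lck (-0.75 ± 0.17) at the lowest p-values. Their summed level was 355 to 422 CPM in controls and 298 to 364 CPM in ND1_cKO. NK cell markers were negative in 9 of 9 (median -1.06, edgeR called 0, DESeq2 4 lower), with Eomes (-1.20 ± 0.40), Klrb1a (-1.39 ± 0.52) and Tbx21 (-0.93 ± 0.35) at the lowest p-values. These markers had a summed level of 102 to 165 CPM in controls and 24.9 to 100.6 CPM in ND1_cKO. Their mean log2 level, relative to the control mean, was -2.37 in ND1_cKO replicate 3, the library in which most B cell genes were lowest too. Pan-leukocyte genes were negative in 8 of 10 with a median of -0.18 (2706 to 3806 CPM in controls, 2556 to 3214 CPM in ND1_cKO), and Cd48 (-0.39 ± 0.09), Coro1a (-0.64 ± 0.18) and Ptprc (-0.45 ± 0.18) led them without passing. Myeloid markers were negative in 6 of 16 with a median of 0.18 (17049 to 20755 CPM and 14107 to 23464 CPM), and Fcgr3a (-0.76 ± 0.18), Itgam (1.16 ± 0.29) and Xcr1 (-1.03 ± 0.37) led them without passing. Endothelial markers were negative in 9 of 10 with a median of -0.64, and edgeR called 5 lower (4274 to 4720 CPM and 2569 to 2946 CPM), led by Ptprb (-0.89 ± 0.11, adjusted p = 0.019), Flt1 (-0.66 ± 0.09) and Tek (-1.08 ± 0.16). Without control replicate 2, control replicate 3 or ND1_cKO replicate 1 edgeR called 0 of these endothelial markers, without control replicate 1 it called 3, and without either of the other ND1_cKO libraries it called 5 or 6. Over all genes edgeR called 188 higher and 212 lower with every library kept. Without control replicates 1, 2 and 3 in turn it called 110 and 74, 0 and 0, and 7 and 2. Without ND1_cKO replicates 1, 2 and 3 in turn it called 18 and 5, 189 and 174, and 250 and 245. Stromal and mural cell markers were negative in 5 of 10 (median -0.07, edgeR called 0), with Col1a1 (2.58 ± 0.58), Kcnj8 (-0.46 ± 0.21) and Myh11 (-0.34 ± 0.21) at the lowest p-values; without ND1_cKO replicate 2 Col1a1 passed (adjusted p = 0.0248). Alveolar type 2 cell markers were negative in 5 of 9 (median -0.17), and edgeR called 1 higher, the surfactant protein gene Sftpd (0.81 ± 0.12, adjusted p = 0.0317). Etv5 (-0.98 ± 0.20) and Sftpa1 (0.63 ± 0.17) came next and passed without ND1_cKO replicate 3 (adjusted p = 0.0135 and 0.0297). With any 1 of the 3 control libraries or ND1_cKO replicate 1 left out, Sftpd was not called (adjusted p between 0.0524 and 0.145). The part of each of these cell types in the values of the members was not tested, and whether B cell genes differed more than those of other lymphocytes was not tested.

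**Figure D4:**
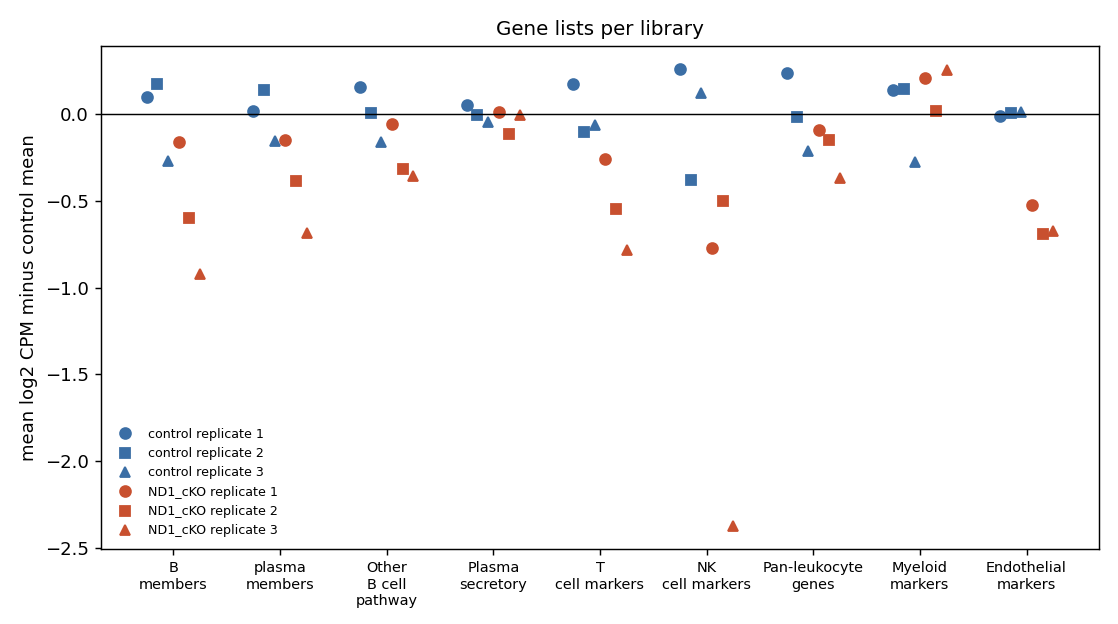
Mean log2 CPM of the tested genes of each list, minus the control mean, for the 6 libraries; symbols give the replicate number and colours the genotype. B cell, plasma cell, other B cell pathway, T cell, NK cell and pan-leukocyte genes are lowest in ND1_cKO replicate 3. Endothelial markers lie between -0.69 and -0.52 in ND1_cKO and near 0 in controls. Myeloid markers and plasma cell secretory genes lie around 0 in both genotypes.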

How the data were processed

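Whole-lung RNA of 6 rats was measured, 3 per genotype; each column was assigned by the column name in its sample's description, leaving 0 columns without a sample. The authors deposited whole-number read counts per gene symbol. The tools named in the submitters' processing notes are HISAT2, HTSeq, fastp, R 4.3.3 and DESeq2, without their roles; the build, annotation and strand setting behind the counts are not given in the sources. Without strand, reads of overlapping genes cannot be told apart, and in RefSeq 5 members overlap another protein-coding gene (Cd72, Cd37, Ralgps2, Cxcr5 and Derl3), whose values are uncertain.

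Counts were tested with the two-sided robust quasi-likelihood test of edgeR 4.0.16 (R 4.3.3), after TMM scaling and filterByExpr, which left 16548 genes. Genotype was the sole factor, p-values were adjusted by Benjamini and Hochberg over all genes, and adjusted p below 0.05 was called. SE is the size of the log2 fold change divided by the root of F. Mean log2 levels use a prior count of 2. DESeq2 1.42.0 and limma 3.58.1 served as alternatives. The fit was tested on counts simulated with the average spread of these data at each expression level. Of 100 genes changed 2-fold it recovered 70, and of 100 changed 4-fold it recovered 87. Among its 170 calls 13 were false. No 2 libraries agreed within sampling noise. Every member is described; of each other list the 3 tested genes with the lowest p (fewer where fewer were tested) were named, with defining markers, and further genes (Rag1, Tnfsf13b, Tnfsf13) were chosen after their values were seen. Members and lists were chosen with earlier results of these data known. Each edgeR p-value sets the genotype difference against the spread between 3 animals per genotype, with spread estimates moderated across genes.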

Additional observations from a re-analysis of the deposited data

How the results depend on the processing

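The edgeR count of members called, 0 higher and 0 lower, was 0 and 0 with DESeq2 size factors, total counts only, no filter, a 1 CPM minimum, limma-voom and the replicate block. DESeq2 called 8 lower and limma-voom with library weights 1; with a library left out the count lower ranged from 0 to 1, and both single calls were Bank1. The medians ranged from -0.79 to -0.39 for B cell genes and from -0.57 to -0.30 for plasma cell genes with a library left out. Of the 172 other listed genes tested, 1 was called higher and 9 lower. DESeq2 gave 10 and 35, library weights 7 and 15, the replicate block 1 and 2, and leaving out a library 0 to 4 and 0 to 9. Over all genes edgeR called 188 higher and 212 lower, DESeq2 977 and 902, and library weights 474 and 490. The replicate block called 145 and 117 of all genes, and leaving out a library 0 to 250 and 0 to 245. Member and list counts are to be read beside these. Same-numbered libraries of the genotypes correlated at 0.165, 0.0235 and 0.135 in their deviations from the group means, so the numbers were not taken as pairs, although each library correlated best with its own number. With the replicate block edgeR still called 0 members, but their adjusted p moved. It went from 0.527 to 0.0741 for Irf8, 0.283 to 0.0987 for Spib, 0.154 to 0.0553 for Prdm1 and 0.125 to 0.0614 for Cd79a. For Bank1 it rose from 0.0696 to 0.0757 and for Jchain from 0.166 to 0.184. The replicate block left Sftpd, Ptprb and Tek called (adjusted p 0.046, 0.046 and 0.042), with the endothelial count at 2 in place of 5, and Bach2, Ets1, Lef1 and Plac8 not called (0.0606 to 0.0737). Members near 0 changed sign: Cd180 with total counts only (-0.014) and limma-voom (-0.0079), Fcrl5 (0.094) and Derl3 (0.037) with library weights, and Btk with total counts only (-0.019). With a library left out, log2 fold changes ranged from -0.11 to 0.19 for Cd180, -0.31 to 0.036 for Fcer2, -0.33 to 0.10 for Fcrla, -0.70 to 0.28 for Fcrl5, -0.082 to 0.14 for Btk, -0.41 to 0.067 for Ebf1, -0.34 to 0.0060 for Pou2f2 and -0.38 to 0.054 for Derl3. The causes were not tested. Low counts limit Vpreb3, Fcrl1, Fcrl5 and Pax5.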
